A study of Mus musculus with 16 samples.

Results

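MicroRNAs (miRNAs) were compared between the later and the earlier of 3 dendritic cell progenitor stages of mouse bone marrow, the common dendritic cell progenitor (CDP) and the cell that the labels call MP, with the macrophage and dendritic cell progenitor (MDP) set beside them. The comparison rests on 4 of the 16 arrays of the series, chosen by sample title, 2 of CDP and 2 of MP. The 2 MDP arrays serve to place the intermediate stage. The other arrays hold monocytes and dendritic cells. They enter the choice of the miRNAs tested, the scaling of each array and the estimate of the spread.

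All 3 progenitors were sorted without culture from femur and tibia marrow of female C57Bl/6 mice aged 6 weeks, and each replicate was RNA from a pool of 15 mice. Every population lacked lineage markers and carried CD135, the receptor for the dendritic cell growth factor Flt3 ligand. CDP were CD117 low CD115+, MDP were CD117+ CD115+ and MP were CD117+ CD115-. CDP and MP therefore differ in both CD117, the stem cell factor receptor, and CD115, the receptor for macrophage colony-stimulating factor. The labels do not spell out MP, and the gating proteins cannot be checked on an array of miRNAs. Replicate 1 of every population was hybridised to one array design on one slide, and replicate 2 to a second design on another slide.

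A miRNA is a short RNA that guides a silencing complex to messenger RNAs, which it recognises mainly through its seed, bases 2 to 8 of the mature strand. miRNAs that share a seed are grouped into families, and miRNAs that lie close together in the genome are often cut from one transcript. In blood formation, miR-125b, miR-99a, miR-126, miR-130a and the Hox cluster miRNAs miR-10a and miR-196b are known from stem cells and early progenitors, miR-223 from granulocytes and monocytes, and miR-150, miR-181a and miR-342 from lymphocytes.

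The miRNAs on which the results turn are printed here with the seed in capitals, from RefSeq on build GRCm38.p6. RefSeq entries were matched for 34 of the 37 miRNAs that differed between CDP and MP. miR-101b, miR-30b and miR-669a are given by name only. The first 9 sequences below belong to miRNAs that were lower in CDP with the widest measured gap or belong to the same clusters or list, the next 4 to further miRNAs lower in CDP by over 2-fold, and the last pair to miRNAs that were higher in CDP.
miR-130a: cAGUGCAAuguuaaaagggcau
miR-196b: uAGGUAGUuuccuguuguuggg
miR-155: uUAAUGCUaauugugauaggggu
miR-10a: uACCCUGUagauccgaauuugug
miR-125b-5p: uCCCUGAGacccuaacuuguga
miR-99a: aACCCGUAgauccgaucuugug
let-7e: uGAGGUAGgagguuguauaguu
let-7c: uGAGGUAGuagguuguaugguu
miR-126-3p: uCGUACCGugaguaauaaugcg
miR-34a: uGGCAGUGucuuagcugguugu
miR-146b: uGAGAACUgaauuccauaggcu
miR-128: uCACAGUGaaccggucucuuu
miR-322: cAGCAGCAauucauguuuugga
miR-342-3p: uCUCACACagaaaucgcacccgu
miR-181a-1*: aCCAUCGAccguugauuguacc

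Of 175 miRNAs tested, 37 (21.1%) differed between CDP and MP at an adjusted p under 0.05 in limma, 34 lower in CDP (19.4%) and 3 higher (1.71%). An unadjusted p under 0.05 was found for 59. Levels are given on the log2 scale with the 75th percentile of the array set to 0, so that a difference of 1 is a doubling. All 37 had groups that did not overlap, against 80 of the 175 tested (45.7%). Of the 37, 34 were detected on all 4 CDP and MP arrays. The difference was over 2-fold for 16, of which 15 were lower in CDP. It was up to 2-fold for 21, of which 19 were lower. Since each group is RNA of many sorted cells, fewer cells holding a miRNA and less of it per cell cannot be told apart.

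miR-130a had the widest difference. Its level was -3.61 and -3.92 in CDP, against -1.44 and -0.64 in MP, and the MDP arrays read -2.96 and -2.60. The 3 populations did not overlap and MDP lay between the others on both designs. The difference of CDP from MP was -2.73 ± 0.34 (log2, SE; adjusted p = 0.000953), a 6.62-fold lower signal. The processed signal behind it was 41.6 and 35.5 units in CDP, against 160 and 343 units in MP. miR-130b, which shares the seed AGUGCAA, differed by -0.41 ± 0.14 (adjusted p = 0.0831), and by 0.34 when the percentile was taken over all miRNAs of an array. miR-301a, of the same seed, differed by 0.57 ± 0.24 (adjusted p = 0.136), and was called higher under the 3 other scalings tried (that one, quantile normalization and median centring), at 0.94 to 1.32 (adjusted p 0.0201 to 0.0424).

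**Figure D1:**
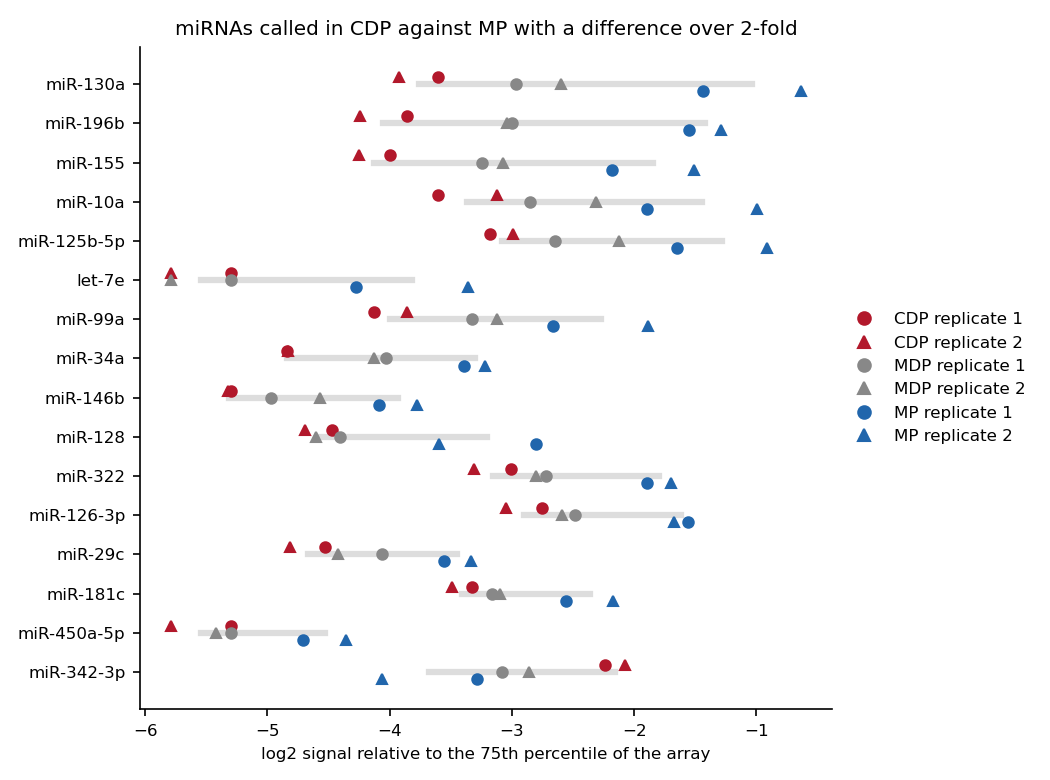
Log2 signal with the array's 75th percentile set to 0 (x axis) of the 16 miRNAs called in CDP against MP with a difference over 2-fold (y axis). Circles are replicate 1 and triangles replicate 2 of CDP (red), MDP (grey) and MP (blue), and the grey bar spans the CDP and MP means. CDP lie left of MP in 15 rows and right of it for miR-342-3p.

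Both measured miRNAs of the Hox clusters were called lower in CDP, beside 19.4% of all tested. Hox genes pattern the embryo and several are active in blood stem cells. miR-196b lies at chr6:52230129-52230150, 2759 bases from Hoxa9 and 1047 bases from Hoxa10 on its other side. Its level was -3.86 and -4.25 in CDP, against -1.55 and -1.29 in MP, with MDP at -3.00 and -3.04. The CDP arrays were lowest, the MP arrays highest, and the difference was -2.63 ± 0.22 (adjusted p = 0.000215), the smallest p of the comparison. miR-10a lies within the span of Hoxb3, at chr11:96317186-96317208. Its level was -3.60 and -3.13 in CDP, against -1.90 and -0.99 in MP, and -2.85 and -2.31 in MDP. The difference was -1.92 ± 0.40 (adjusted p = 0.00964), and the same order of the 3 populations held on both designs. miR-10a kept its sign but was not called in limma when scaled over all miRNAs (-1.17, adjusted p = 0.0710). Nor was it called after quantile normalization (-1.35, adjusted p = 0.0675). The remaining 4 Hox cluster miRNAs on the arrays were not detected on both arrays of any population and were not tested.

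The list of stem and early progenitor miRNAs had 7 tested members of 12, and all 7 were called lower in CDP, beside 19.4% of all tested miRNAs. All lists were chosen with earlier results of these data known, so such counts and medians are a description. The median difference of the 7 was -1.80, against -0.21 for all tested miRNAs. For the 6 members detected in both populations, which leaves out let-7e, it was -2.04, with -1.67 on replicate 1 and -2.41 on replicate 2. Besides miR-130a and miR-196b it held miR-155, miR-125b-5p, let-7e, miR-99a and miR-126-3p. miR-155, which promotes myeloid cell expansion and is also induced by inflammatory signals, had levels of -4.00 and -4.25 in CDP, against -2.18 and -1.51 in MP. MDP, at -3.24 and -3.07, again fell between them, and CDP differed from MP by -2.28 ± 0.36 (adjusted p = 0.00319). miR-126-3p, encoded within the span of Egfl7 and known to hold stem cells in a slowly dividing state, read -2.75 and -3.05 in CDP, against -1.56 and -1.68 in MP. With MDP at -2.48 and -2.59, this difference was -1.28 ± 0.23 (adjusted p = 0.00499).

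The miR-99, let-7 and miR-125 clusters carry 1 member of each of these families on a common transcript. All 4 tested members were called lower in CDP, beside 19.4% of all tested, with a median of -1.72. miR-125b-5p, a miRNA that enlarges the stem cell pool when overexpressed, read -3.18 and -2.99 in CDP, against -1.64 and -0.92 in MP, and -2.64 and -2.12 in MDP. Its difference was -1.80 ± 0.28 (adjusted p = 0.00291). miR-99a read -4.13 and -3.86 in CDP, against -2.66 and -1.89 in MP, a difference of -1.72 ± 0.21 (adjusted p = 0.000953), with MDP at -3.33 and -3.12. On chromosome 16 its neighbour let-7c, within 10 kb, was lower by a smaller amount. let-7c read 0.29 and 0.51 in CDP, against 0.93 and 1.38 in MP, and differed by -0.75 ± 0.10 (adjusted p = 0.00180). let-7c is also made from a second locus on chromosome 15, and the array does not tell the copies apart. let-7e was not detected on any CDP or MDP array and read -4.27 and -3.36 in MP. It was at least 2.59-fold lower in CDP than in MP (adjusted p = 0.00742).

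Other miRNAs lower in CDP by over 2-fold fell outside these lists or into smaller families. miR-34a, which the tumour suppressor p53 induces, read -4.84 and -4.83 in CDP, against -3.39 and -3.22 in MP, and -4.03 and -4.12 in MDP. This was a difference of -1.53 ± 0.28 (adjusted p = 0.00588), and no replicate of one population crossed into another. miR-128, encoded within R3hdm1 and Arpp21, read -4.47 and -4.69 in CDP, against -2.81 and -3.60 in MP, and the MDP values of -4.40 and -4.60 were close to those of CDP. Its difference was -1.38 ± 0.27 (adjusted p = 0.00659). The X-linked cluster of miR-322, miR-503 and miR-450a spans chrX:53048206-53054327. miR-322, which carries the seed AGCAGCA of the miR-15 and miR-16 family, read -3.01 and -3.31 in CDP, against -1.90 and -1.70 in MP, and -2.72 and -2.80 in MDP. It differed by -1.36 ± 0.14 (adjusted p = 0.000558), whereas miR-15a, miR-15b and miR-16 of the same seed differed by -0.02 to 0.00 and were not called. miR-195, also of this seed, was at the floor on all CDP, MDP and MP arrays, so its lack of a difference is set by the floor. With all miRNAs in the percentile, 3 of this family were called higher, beside 32 of all 175 tested. miR-450a-5p was not detected in CDP and was at least 1.57-fold lower there than in MP (adjusted p = 0.00828). miR-503 was detected on 1 MP array and on none of CDP (adjusted p = 0.222).

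miRNAs induced by inflammatory signals had 4 tested members, with miR-155 and miR-146b lower in CDP and miR-146a and miR-212 not called. Of all tested miRNAs, 19.4% were called lower. miR-146b read -5.30 and -5.32 in CDP, against -4.08 and -3.78 in MP, and differed by -1.38 ± 0.17 (adjusted p = 0.000953). Its replicate 1 value in CDP was at the floor set for that design. miR-146a, which has the same seed GAGAACU and restrains signalling from Toll-like receptors, read -4.83 and -4.86 in CDP, against -4.23 and -3.92 in MP (difference -0.77 ± 0.31, adjusted p = 0.120). In the miR-29 family, miR-29c differed by -1.22 ± 0.18 (adjusted p = 0.00223) and miR-29a by -0.76 ± 0.12 (adjusted p = 0.00350), and miR-29b by -0.66 ± 0.23 (adjusted p = 0.0734). miR-181c, at -3.32 and -3.49 in CDP against -2.55 and -2.17 in MP, differed by -1.04 ± 0.19 (adjusted p = 0.00499).

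The miRNAs called higher in CDP numbered 3. miR-342-3p, which is encoded within the span of Evl and is known from lymphocytes and dendritic cells, read -2.24 and -2.07 in CDP, against -3.29 and -4.06 in MP. The MDP arrays, at -3.08 and -2.86, lay between them on both designs. The difference was 1.52 ± 0.29 (adjusted p = 0.00612), a 2.86-fold higher signal, while the other strand of the hairpin, miR-342-5p, was at the floor on all these arrays. miR-181a-1*, the passenger strand of one miR-181a hairpin, read -4.01 and -4.70 in CDP, against -4.70 and -5.21 in MP (difference 0.60 ± 0.16, adjusted p = 0.0261). The guide strand miR-181a itself differed by -0.12 ± 0.13 (adjusted p = 0.610), and by 0.62 when scaled over all miRNAs (adjusted p = 0.0227). Its neighbour miR-181b differed by 0.38 ± 0.15 (adjusted p = 0.105) and was called higher under the 3 other scalings, at 0.68 to 1.13 (adjusted p 0.00253 to 0.0201). miR-669a differed by 0.45 ± 0.10 (adjusted p = 0.0122) and was detected on both CDP arrays and on 1 MP array, so that its size is limited by the background.

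All 34 miRNAs called lower were lower in CDP on both replicates, but not by the same amount. The difference of CDP from MP was wider on replicate 2 for 32 of the 34 miRNAs called lower, the exceptions being miR-128 and miR-1224, the second of which was named after its values were seen. For miR-130a it was -2.17 on replicate 1 and -3.28 on replicate 2. The number of miRNAs detected of 604 on both designs was 128 and 138 in CDP, 128 and 116 in MDP, and 133 and 166 in MP, so that the MP array of replicate 2 had the most and the MDP array of replicate 2 the fewest of the 6. Whether array brightness, design or animals account for the wider gap was not tested.

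**Figure D2:**
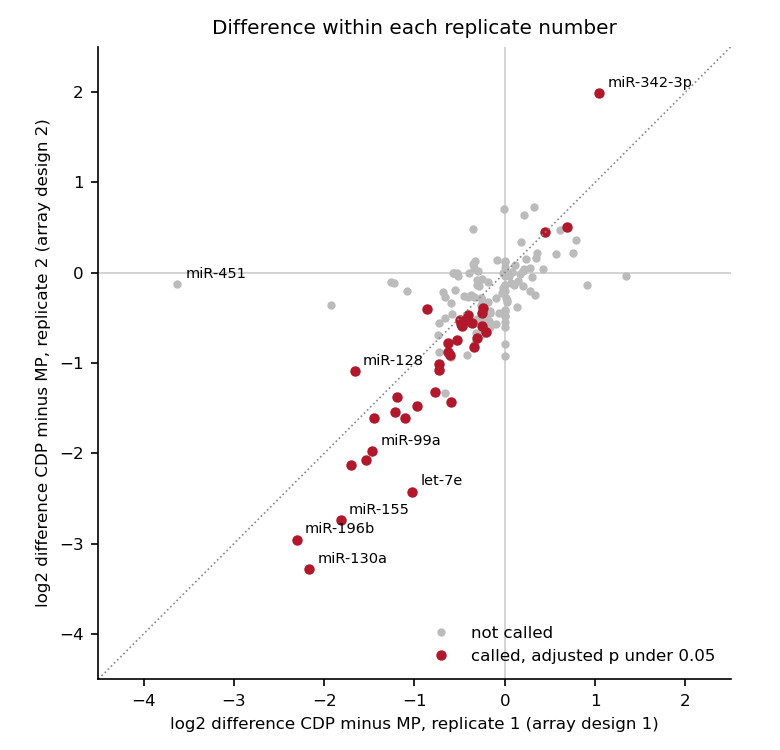
Log2 difference of CDP minus MP for the 175 tested miRNAs on replicate 1 (x axis) and replicate 2 (y axis). Red points are the 37 called miRNAs and grey points the others, and the dotted line marks equal differences. Of the 34 called lower, 32 lie below the dotted line. miR-451 stands apart because 1 MP array had a high value.

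MDP lay between CDP and MP on both replicates for 27 of the 37 called miRNAs (73.0%), against 34 of all 175 tested (19.4%) and 7 of the 138 not called (5.07%). A miRNA with a wide gap between CDP and MP leaves more room for MDP to fall inside, so these shares are a description. The 27 were let-7a, let-7b, let-7c, let-7f, let-7g, miR-10a, miR-29a, miR-29c, miR-30b, miR-34a, miR-99a, miR-101b, miR-125b-5p, miR-126-3p, miR-128, miR-130a, miR-146b, miR-155, miR-181c, miR-196b, miR-222, miR-26a, miR-322, miR-340-3p, miR-342-3p, miR-652 and miR-669a. Several of them, such as miR-101b, miR-26a, miR-340-3p and miR-652, were named after their values were seen, to account for every called miRNA. None of the 37 had MDP outside the range the same way on both replicates. When scaled over all miRNAs, the differences of let-7a, let-7b, let-7f, let-7g, miR-30b, miR-222, miR-340-3p and miR-652 turned in sign. The place of MDP for these, and the count of 27, hold only for the scaling used.

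The remaining 10 called miRNAs split by replicate. For let-7e MDP and CDP were both not detected on either array, and for miR-450a-5p likewise, although its MDP value on replicate 2 was above the floor. For miR-26b, miR-30a, miR-30c and miR-30e MDP lay beyond CDP on replicate 1 and between on replicate 2. For miR-20b, miR-92a and miR-1224 MDP lay beyond MP on replicate 2 and between on replicate 1. For miR-181a-1* MDP lay just beyond MP on replicate 1 and between on replicate 2. All of these but let-7e and miR-450a-5p differed between CDP and MP by less than 2-fold.

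The share of the CDP to MP difference already present in MDP had a median of 63.6% over the called miRNAs, with quartiles of 55.4% and 74.2%. It was over 50% for 29 of the 37. The shares of let-7e and miR-450a-5p are set by the floor, and over the 35 detected in both populations the median was 61.9%, with 27 over 50%. Shares at or near the CDP level belonged to miR-30e (110%), miR-26b (99.4%), miR-128 (94.3%), miR-30a (86.8%) and miR-26a (83.4%). Some of these shares differed widely by replicate, at 204% and 69.8% for miR-30e and 126% and 55.0% for miR-30a, against 96.0% and 91.7% for miR-128. For miR-128 the step of MDP minus MP was -1.30 ± 0.27 and that of CDP minus MDP was -0.08 ± 0.27. The lowest shares were those of miR-20b and miR-92a of the miR-17 clusters, at 7.28% and 16.2%. By replicate they were 25.5% and -7.19% for miR-20b, and 37.3% and -3.69% for miR-92a. When scaled over all miRNAs, 15 of the 37 differences turned in sign, among them those of miR-30e, miR-26b, miR-30a, miR-20b and miR-92a. Their shares, and the medians, quartiles and counts that include them, hold only for the scaling used. miR-92a read 2.02 and 2.29 in CDP, against 2.51 and 2.81 in MP, and 2.32 and 2.83 in MDP, so that its steps were -0.42 ± 0.11 for CDP minus MDP and -0.08 ± 0.11 for MDP minus MP. miR-34a stood near the middle, with 50.5%. Both steps share the MDP arrays and add up to the whole difference, so neither is separate evidence.

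**Figure D3:**
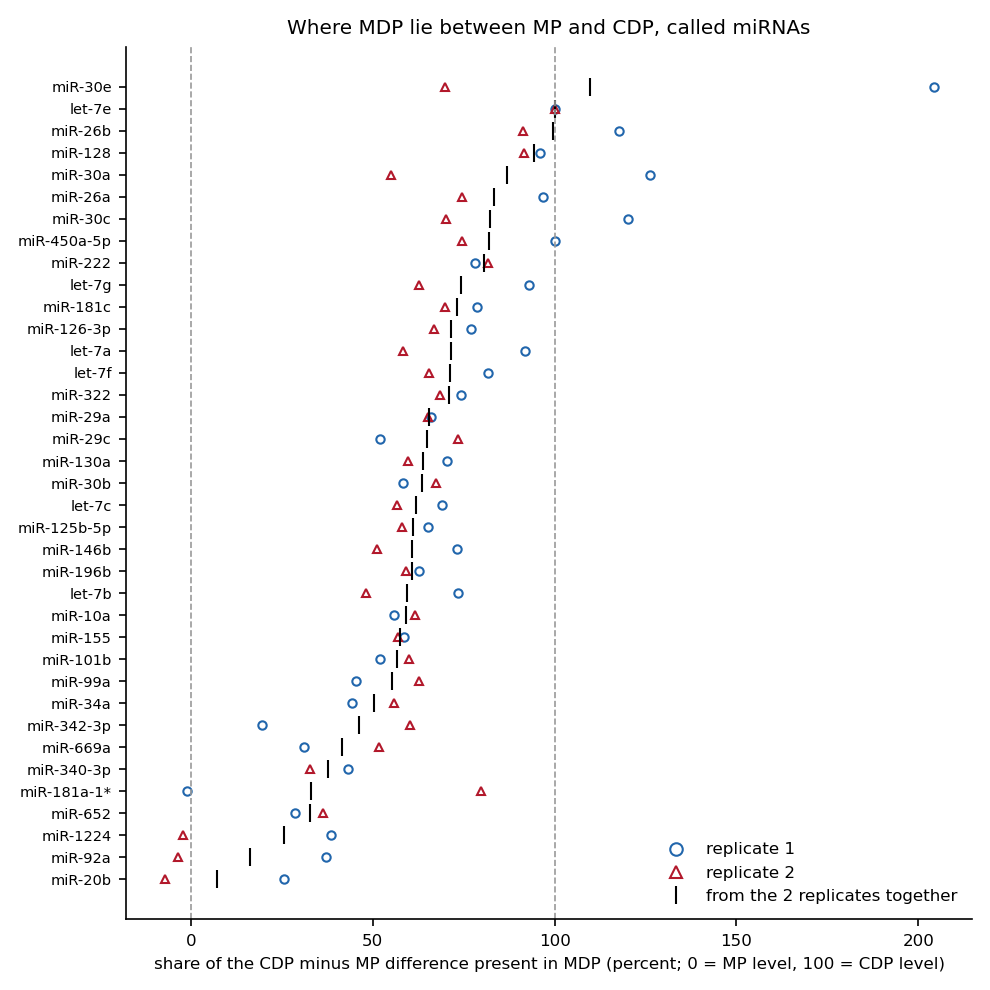
Share of the CDP minus MP difference present in MDP (x axis, percent, with 0 at the MP level and 100 at the CDP level) for the 37 called miRNAs (y axis). Circles are replicate 1, triangles replicate 2, and ticks the value from both together. The ticks of 29 miRNAs lie above 50 percent, and that of miR-30e, at 110 percent, lies past the CDP level.

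The test of whether MDP lay off the midpoint of CDP and MP called 0 of 175 miRNAs in limma (0%), with 9 at an unadjusted p under 0.05. A p that misses the threshold does not show that MDP lay at the midpoint. The smallest p belonged to miR-223, which restrains granulocyte production and activation. It read 2.64 and 2.78 in CDP, against 2.65 and 2.07 in MP, while both MDP arrays were higher, at 3.13 and 3.41. MDP exceeded the midpoint by 0.74 ± 0.17 (unadjusted p = 0.00210, adjusted p = 0.368), and CDP and MP differed by 0.35 ± 0.20 (adjusted p = 0.272). The size of the miR-223 offset depended on the setting. After quantile normalization it was 0.24 ± 0.21 (unadjusted p = 0.273 in limma). It was 0.51 without MDP replicate 2 and 0.96 without MDP replicate 1. Next in order came let-7e, miR-181a and miR-128, all at an adjusted p of 0.749. MDP lay below the midpoint by 0.31 for miR-181a and 0.61 for miR-128, while let-7e was not detected in CDP or MDP, so that its offset is set by the floor. miR-15a, miR-202-3p, miR-27b and miR-322, the rest of the 8 with the smallest p, had offsets of -0.23, 0.73, 0.35 and -0.28.

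Among miRNAs not called, MDP lay beyond CDP on both replicates for 6 (miR-150, miR-185, miR-27b, miR-484, miR-671-5p and miR-7a) and beyond MP on both for 2 (miR-148a and miR-1897-3p), most of them named after their values were seen. miR-150, a regulator of B cell formation, read -4.90 and -4.87 in CDP, against -4.17 and -3.99 in MP, and was not detected on either MDP array. Its difference of CDP from MP was -0.81 ± 0.56 (adjusted p = 0.381). miR-27b read -1.11 and -1.18 in CDP, against -1.72 and -1.66 in MP (difference 0.54 ± 0.17, adjusted p = 0.0506). It was called higher under the 3 other scalings, at 0.91 to 1.29 (adjusted p 0.00469 to 0.0201). MDP lay between on both replicates for 7 not called, among them miR-21, miR-146a and miR-130b.

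Calls in the myeloid list depended on the scaling. All 8 of this list were tested, 0 rose and 0 fell, beside 21.1% of all tested that were called. Their median difference was 0.09 beside -0.21 for all tested. With all miRNAs in the percentile, the median was 0.84, beside 0.24 for all tested. Under that scaling 5 of the list were called higher, miR-223, miR-142-3p, miR-23a, miR-24 and miR-27a, beside 32 of all 175. Quantile normalization called 0 of the list and median centring 1, miR-223. In the same limma fit 59 of the 175 tested had an unadjusted p under 0.05, among them miR-21 of this list. miR-21, broadly present in myeloid cells, read 0.52 and 0.51 in CDP, against 1.24 and 1.59 in MP, and 1.10 and 1.36 in MDP (difference of CDP from MP -0.90 ± 0.38, adjusted p = 0.136). miR-142-3p, found in all blood lineages, differed by 0.23 ± 0.19 and miR-142-5p by 0.04 ± 0.17, and miR-22 was at or near the floor in all 3 populations. The 5 members of the miR-23, miR-27 and miR-24 clusters likewise gave 0 calls, with a median of 0.12. Scaled over all miRNAs all 5 were called higher, beside 32 of all 175, with a median of 0.87. Quantile normalization and median centring each called 1 of the 5, miR-27b. Of the lymphocyte list, 1 of 7 rose (miR-342-3p), 1 fell (miR-181c) and 5 were not called, with a median of -0.12. Scaled over all miRNAs, 3 of the lymphocyte list were called higher and 0 lower, beside 32 higher and 7 lower of all 175.

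**Figure D4:**
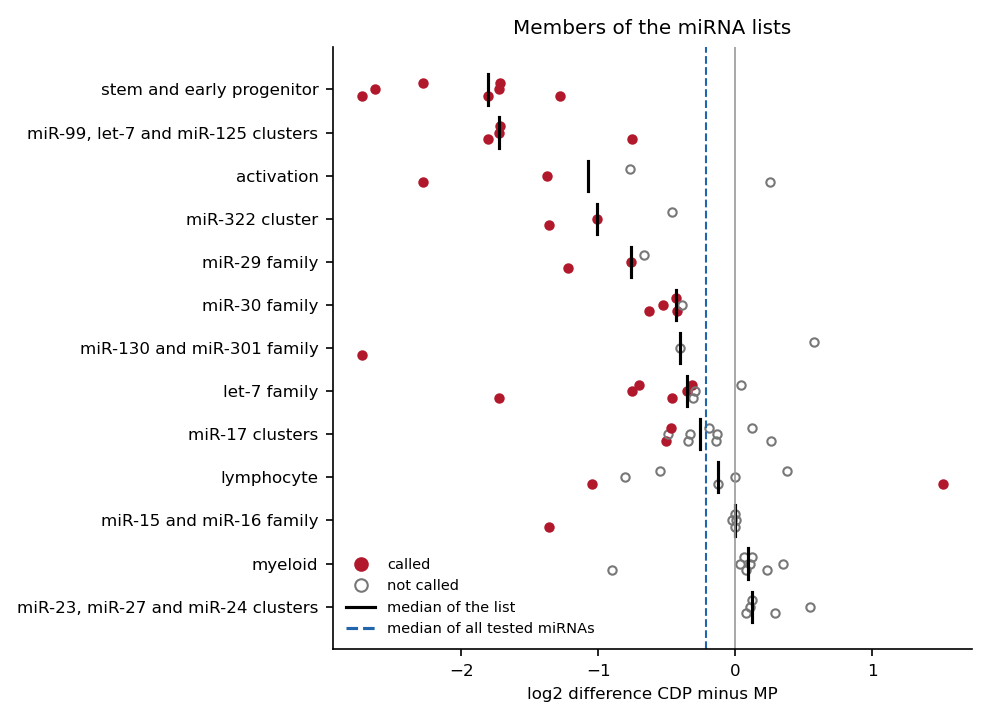
Log2 difference of CDP minus MP (x axis) for the tested members of each list with at least 3 tested members (y axis). Filled points are called miRNAs, open points are not called, the black tick is the median of the list and the dashed line the median of all tested miRNAs, -0.21. All 7 stem and early progenitor members are called, and none of the 8 myeloid members under the scaling shown.

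Families with abundant members were lower by small amounts whose sign turned on the scaling. Of 9 let-7 family members, which share the seed GAGGUAG and are known for restraining growth genes, 6 were called lower, with a median of -0.35, beside 19.4% of all tested called lower. let-7a read 1.79 and 1.78 in CDP, against 2.15 and 2.34 in MP (difference -0.46 ± 0.10, adjusted p = 0.0125). Of 5 miR-30 family members, 4 were called lower, with a median of -0.43. Scaled instead to the 75th percentile of all miRNAs on the array, the medians were 0.39 for the let-7 and 0.32 for the miR-30 family, and after quantile normalization they were -0.09 and 0.09. Of 10 tested members of the miR-17 clusters, which drive proliferation in many cells, miR-92a and miR-20b were called lower and 8 were not called. This is close to the 19.4% of all tested called lower. The median of the 10, -0.26, became 0.49 under the first of these scalings. miR-222 (-0.58 ± 0.14, adjusted p = 0.0172) was called lower, and its cluster neighbour miR-221 (0.03 ± 0.16) was not, though it was called higher when scaled over all miRNAs (0.77, adjusted p = 0.0272). In human cells both are known to reduce the stem cell factor receptor CD117, a protein used in this sort.

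The number of calls and the direction of the small differences depended on the scaling. Scaled to the 75th percentile of all miRNAs on the array, 39 miRNAs were called, 32 higher and 7 lower, and the median of all tested was 0.24. After quantile normalization 23 were called, 10 higher and 13 lower, around a median of 0.00. All 16 miRNAs with a difference over 2-fold kept their sign in the 3 scalings, and 6 of the 21 with a smaller one did. Called with the same sign in all 3 were let-7e, miR-125b-5p, miR-130a, miR-155, miR-196b, miR-322 and miR-99a, lower in CDP, and miR-181a-1*, miR-342-3p and miR-669a, higher. Over all settings tried, the smallest rise was 0.08 for miR-181a-1* and 0.03 for miR-669a, against 0.76 for miR-342-3p. Of the 138 miRNAs not called, 29 were called when scaled over all miRNAs, 7 after quantile normalization and 6 after median centring of each array, which was chosen after seeing the data. The calls also rest on a spread estimated over all 16 arrays. With the 6 progenitor arrays alone 0 of 175 passed the adjusted threshold, while 52 had an unadjusted p under 0.05. With normexp background correction in place of the processed signal, 0 passed and 20 did so unadjusted. The 16 differences over 2-fold kept their sign there but were smaller, 15 of them by over 1.5 times. miR-130a was at -1.69, miR-196b at -1.49, miR-34a at -0.59 and miR-342-3p at 0.76. The normexp setting adds an offset of 50 units to every signal, which narrows log2 differences of miRNAs with low signal. The processed signal of miR-34a in CDP, for example, was 17.7 and 18.8 units. The part of the offset in the smaller differences was not tested.

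**Figure D5:**
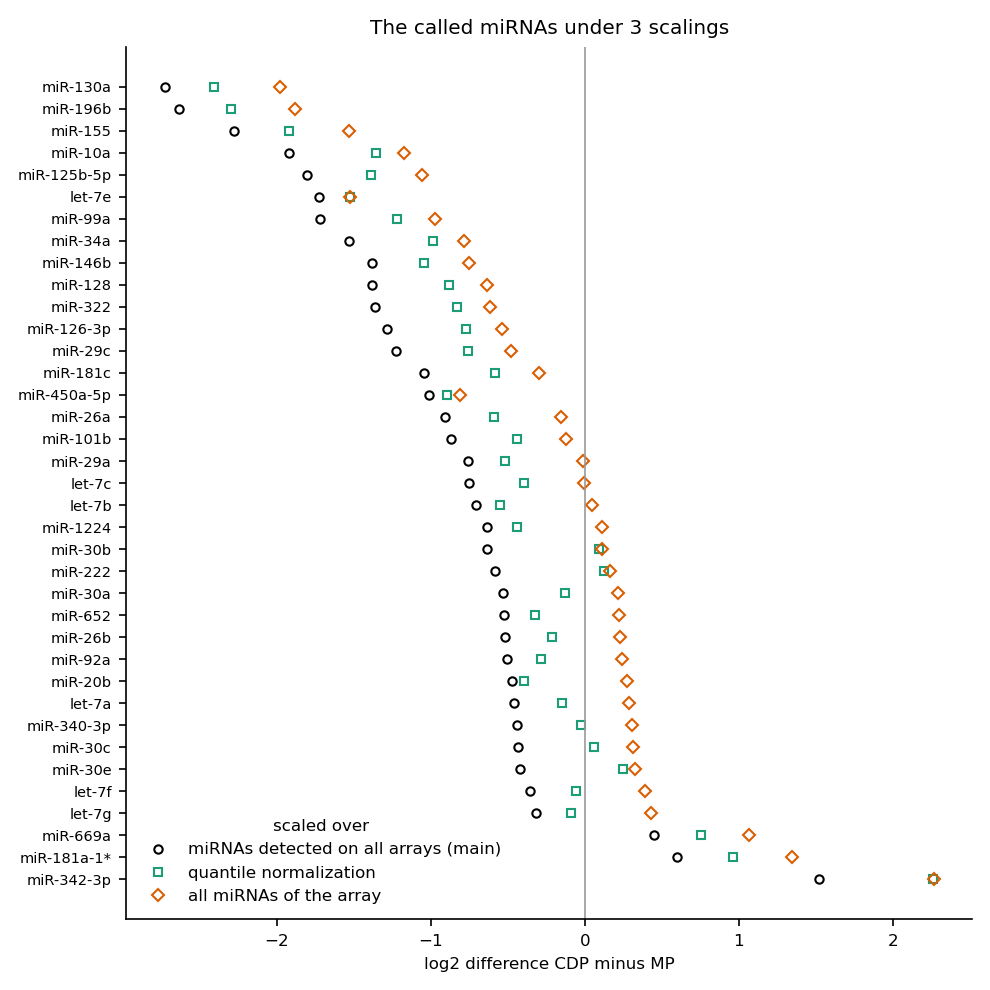
Log2 difference of CDP minus MP (x axis) of the 37 called miRNAs (y axis) when each array is scaled over the miRNAs detected on all arrays (circles), by quantile normalization (squares) or over all miRNAs of the array (diamonds). Differences beyond 1 on the log2 scale keep their side of 0, and 15 of the smaller ones cross it.

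Markers of other cells were read on the same arrays. The erythroid list (miR-451, miR-144 and miR-486) summed to 0.0404 and 0.0269 of scaled signal in CDP, and to 0.536 and 0.0295 in MP, with 0.0246 and 0.0288 in MDP. The MP array of replicate 1 thus stood above the other progenitor arrays, while miR-451 was not called (adjusted p = 0.283). The part of red cell precursors in the differences was not tested. Of 18 stromal, muscle and epithelial miRNAs, 0 were detected on any CDP or MDP array and 1, miR-203, on the MP array of replicate 2. The lymphocyte list summed to 1.53 and 1.39 in CDP, against 1.34 and 1.55 in MP.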

How the data were processed

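RNA of 8 sorted populations was measured on 16 Agilent 1-colour miRNA arrays. The intensities are the processed signals that Feature Extraction wrote, version 10.7.3.1 per the file headers (9.1 per the submitters' processing notes), deposited unlogged and not scaled between arrays. The deposited value tables hold the same intensities rounded.

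Outlier spots were dropped, and spots and then probes averaged per miRNA. Of 604 mouse miRNAs on both designs, with equal probe sequences, 175 were tested, those detected (0.5 of a probe's spots well above background) on both arrays of a population. Scaling used, per array, the 75th percentile over the 88 miRNAs that all arrays detected (333 to 876 units). Values under a floor (log2 -5.30 and -5.78 by design) were raised to it and logged. Floor values do not vary, so an adjusted p resting on them can be too small. A miRNA not detected in a population gets a lower bound on the fold. The number of arrays limits the precision.

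limma 3.58.1 (R 4.3.3) fitted population means with the replicate number as a block and Benjamini-Hochberg adjustment over the 175. The number marks the array design and slide, and deviations of same-numbered arrays correlated in all 28 pairs of populations (r 0.297 to 0.917). On simulated arrays with CDP against MP changes in 60 of 175 miRNAs, 71.0% of changes of 0.6, 99.8% of 1 and 100% of 2 on the log2 scale were called, and 2.49% of calls were false. The simulation gave every miRNA the same normal spread, applied no floor and left out errors of scaling. These shares therefore may not hold for the real arrays.

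The miRNAs and lists were chosen with earlier results of these data known, and lists are described by counts and medians with no test. Named are the 15 widest rises and falls called with 1 sign on both replicates, the 4 members of each list lowest in p, the 8 lowest in p for the midpoint, and a set list that includes miR-223, miR-155, miR-150 and miR-21.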

Additional observations from a re-analysis of the deposited data

How the results depend on the processing

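Of 37 calls, all 37 stood with the deposited value table and 32 with the total gene signal. With quantile normalization 16 of the 37 stood, with median centring 16, and with the 75th percentile over all miRNAs 10. The count of all calls, including miRNAs outside the 37, was 23 (10 higher, 13 lower) with quantile normalization. It was 18 (1 higher, 17 lower) without a detection filter. Median centring, an alternative chosen after seeing the data, gave 22 (9 higher, 13 lower). In limma 0 were called with normexp correction (20 at an unadjusted p under 0.05) or the progenitor arrays alone (52 unadjusted). The progenitor arrays alone leave fewer arrays for the spread. The 75th percentile over all miRNAs gave 32 higher and 7 lower, and the brightest probe 6 higher and 20 lower. Without the replicate block the pairing by design is ignored and 18 were called (1 higher, 17 lower), of which MDP lay between on both replicates for 17. MDP lay between for 17 of the calls after quantile normalization. With normexp or the progenitor arrays alone 0 miRNAs were called, so there was no called miRNA for which to place MDP. Leaving out 1 array gave 20 to 26 calls (1 to 3 higher, 17 to 25 lower), 23 without CDP replicate 1, 20 without CDP replicate 2 and 20 without MP replicate 2. The lone array is then assumed to vary like the other groups, and MDP cannot be placed on both replicates. The midpoint test gave 0 to 1 calls, the 1 (miR-18a*, at the floor) without MDP replicate 1.

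Signs turned under the 75th percentile over all miRNAs for let-7a (0.29), let-7b (0.0445), let-7f (0.39), let-7g (0.43), miR-1224 (0.11), miR-20b (0.28), miR-222 (0.17), miR-26b (0.23), miR-30a (0.22), miR-30b (0.11), miR-30c (0.32), miR-30e (0.32), miR-340-3p (0.31), miR-652 (0.22), miR-92a (0.24) and, among those not called, miR-181a (0.62, adjusted p = 0.0227). They also turned after quantile normalization for miR-222 (0.13), miR-30b (0.0933), miR-30c (0.0577) and miR-30e (0.25), and after median centring for let-7f (0.0117) and let-7g (0.0464). Of the 138 not called, 61, 42 and 50 turned under these 3 scalings, miR-181a in each (0.62, 0.22 and 0.24). The median of all tested miRNAs was -0.21 as reported and 0.24, 0.00 and 0.15 under these 3 scalings. The cause of the other changes was not tested. Signal over background limits let-7e and miR-450a-5p, which have only a bound in CDP.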

Other observations

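Levels in the differentiated populations of the same series place the CDP and MP values, and are given as values with no test. miR-342-3p averaged -0.55 in plasmacytoid dendritic cells, -0.98 in Gr1+ monocytes, and 1.05, 1.63 and 0.80 in CD4+, CD8+ and CD4-CD8- spleen dendritic cells, against -2.16 ± 0.12 in CDP and -3.67 ± 0.55 in MP (SD, n = 2 each). miR-196b and miR-130a, lower in CDP than in MP, were not detected on any array of Gr1+ monocytes or of the 3 spleen dendritic cell populations. In plasmacytoid dendritic cells miR-196b averaged -4.03, beside -4.05 in CDP, and miR-130a averaged -4.14, beside -3.76 in CDP.

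Some miRNAs that were lowest in CDP among the progenitors had higher values in other populations. miR-34a averaged 0.11 in CD4+, -1.28 in CD8+ and 0.11 in CD4-CD8- spleen dendritic cells, against -4.84 in CDP and -3.31 in MP. miR-155 averaged -2.17, -1.51 and -0.81 in the same spleen populations, against -4.13 in CDP and -1.85 in MP, while it was not detected in Gr1+ monocytes. miR-128 averaged -0.77 in plasmacytoid dendritic cells, the highest of the 8 populations, against -4.58 in CDP and -3.20 in MP.

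The second array design holds 92 mouse miRNAs that the first lacks, so each population has 1 array and no test was made. Of these, 28 were detected on the CDP, MDP or MP array. Of the 28, 24 read lower in CDP than in MP, beside 113 of the 175 tested miRNAs on replicate 2. These sets are unlike: all 28 were detected in CDP and MP, while 32 of the 175 read the same in both on replicate 2. No other scaling was tried for the 28, so the direction of their small differences holds only for the scaling used. The median difference was -0.23 for the 28 and -0.20 for the 175 on that replicate. Among the 28, miR-1927, miR-3099, miR-2861 and miR-2132 were lower by more than 1 on the log2 scale. Their differences were -1.53, -1.32, -1.17 and -1.13, and 0 of the 28 were higher by that much.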
